A study of Mus musculus with 12 samples.

Results

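The genes of the collagen chains were read across trigeminal ganglia, the sensory ganglia of the face and meninges, from 12 CD1 mice, an outbred stock. Every gene of the deposited expression table whose mouse symbol is Col, a number, the letter a and a number was taken, which gave 44 of 51341 listed genes. They were sorted by the collagen they build into 11 fibrillar, 8 basement membrane, 9 FACIT (fibril-associated collagens with interrupted triple helices), 8 microfibril, 4 transmembrane and 4 network and anchoring genes. Neither the symbols nor the classes use a measured value.

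A collagen molecule is a triple helix of 3 chains, each with glycine as the first residue of a repeated Gly-X-Y triplet. Fibrillar chains are made as procollagens, lose their propeptides outside the cell and pack into cross-linked fibrils, to which FACITs attach. Type IV chains form the sheet of the basement membrane, type VI chains form beaded microfibrils, and transmembrane collagens span the membrane of the cell that makes them. In a peripheral ganglion the fibrils lie in the capsule and the connective tissue between nerve fibres, and basement membranes surround Schwann cells, satellite glia and vessels.

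The series compared 6 responders, CD1 mice that had reacted to PACAP (pituitary adenylate cyclase-activating polypeptide, a neuropeptide of sensory and parasympathetic nerves), with 6 non-responders of the same stock. Each group held 3 males and 3 females, each library was made from the poly A RNA of 1 mouse, and no genetic change is named in the labels. How the response was scored, when PACAP was given and how old the mice were is not stated in the labels. Nor do these say whether mice were littermates, so that p-values measure the spread between these mice.

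Values are FPKM, fragments per kilobase of gene model scaled by library depth, and summed to between 286388 and 358590 per mouse. The tissue label was checked against 8 sensory neuron markers, which summed to between 1747 and 3593 FPKM in responders and between 2023 and 3382 FPKM in non-responders. Responder 1, lowest of all 12 in this sum, listed 77911 FPKM over 8 pituitary genes, against at most 1053 FPKM in any non-responder. Non-responder 4 listed 2016 FPKM over 8 skeletal muscle genes and 218 FPKM over 8 bone genes, the highest sum of all mice in both. Even an abundant gene could be listed at very different levels between mice. Actb, the cytoplasmic beta-actin of nearly all cells, was listed between 12.2 and 317 FPKM in responders and between 9.71 and 356 FPKM in non-responders. The glycolytic enzyme Gapdh kept to between 343 and 549 FPKM over all 12 mice. The cause of the Actb spread was not tested, and a low FPKM is therefore given below as a listing.

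The start regions of 5 collagen genes are shown, picked by the levels and the group comparison given below. They are Col1a2, the most abundant collagen gene of the ganglia, the opposed neighbours Col4a1 and Col4a2, and Col16a1 and Col9a2, members of the class whose summed levels separated the groups. Each sequence is the RefSeq promoter on GRCm38.p6, from 250 bases before to 50 after the start, 5′ to 3′ on the strand of the gene, with capitals for the letters TATAAA, for those of the CCAAT box and for GGGCGG, the core of the GC box, on either strand. The regions are chr6:4505368-4505667 on the plus strand for Col1a2, chr8:11312777-11313076 on the minus strand for Col4a1, chr8:11312555-11312854 on the plus strand for Col4a2, chr4:130047590-130047889 on the plus strand for Col16a1 and chr4:121039316-121039615 on the plus strand for Col9a2.
Col1a2: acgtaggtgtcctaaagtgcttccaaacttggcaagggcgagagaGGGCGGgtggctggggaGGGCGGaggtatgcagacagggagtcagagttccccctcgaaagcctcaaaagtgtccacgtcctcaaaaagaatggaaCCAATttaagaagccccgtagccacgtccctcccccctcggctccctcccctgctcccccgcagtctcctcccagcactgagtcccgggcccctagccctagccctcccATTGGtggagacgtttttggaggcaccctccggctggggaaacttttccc
Col4a1: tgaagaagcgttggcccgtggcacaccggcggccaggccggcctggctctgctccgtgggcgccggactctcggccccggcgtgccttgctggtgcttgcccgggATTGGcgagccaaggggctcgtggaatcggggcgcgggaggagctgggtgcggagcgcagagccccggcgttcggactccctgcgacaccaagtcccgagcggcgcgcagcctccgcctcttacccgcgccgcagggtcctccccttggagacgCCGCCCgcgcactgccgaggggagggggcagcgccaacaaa
Col4a2: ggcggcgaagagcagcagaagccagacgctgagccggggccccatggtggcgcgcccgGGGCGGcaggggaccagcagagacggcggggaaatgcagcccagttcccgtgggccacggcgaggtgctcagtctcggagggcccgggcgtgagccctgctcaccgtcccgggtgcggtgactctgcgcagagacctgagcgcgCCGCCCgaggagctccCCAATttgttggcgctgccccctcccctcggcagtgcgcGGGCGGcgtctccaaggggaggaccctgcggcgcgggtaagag
Col16a1: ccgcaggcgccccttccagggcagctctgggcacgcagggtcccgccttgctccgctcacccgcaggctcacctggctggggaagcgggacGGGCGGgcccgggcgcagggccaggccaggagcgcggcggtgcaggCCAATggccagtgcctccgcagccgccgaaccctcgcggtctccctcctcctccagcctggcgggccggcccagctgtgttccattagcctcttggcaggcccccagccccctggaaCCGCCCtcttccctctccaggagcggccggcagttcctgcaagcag
Col9a2: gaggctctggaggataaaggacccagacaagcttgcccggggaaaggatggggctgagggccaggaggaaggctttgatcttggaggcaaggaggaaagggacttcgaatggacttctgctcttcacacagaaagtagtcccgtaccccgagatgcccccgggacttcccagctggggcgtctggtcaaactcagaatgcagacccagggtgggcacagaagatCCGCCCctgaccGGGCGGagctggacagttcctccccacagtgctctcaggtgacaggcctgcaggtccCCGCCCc
None of these 5 windows holds TATAAA. The table held 38 promoters of 35 collagen genes. GGGCGG, the GC box letters, stood on either strand in 23 of the 38 (60.5%), against 35.7% of 32851 promoters of the same length. CCAAT stood in 13 (34.2%, against 37.4%) and TATAAA in 5 (13.2%, against 13.6%). A match describes these letters in this window and is not a binding site, and a tie to level or response was not tested.

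Collagen messages covered a wide range of levels in every mouse. Col1a2, the alpha 2 chain of type I collagen, had the highest mean over the 12 mice, 126 FPKM, followed by Col1a1, its alpha 1 chain, at 63.6 FPKM and Col4a1, the alpha 1 chain of type IV, at 22.7 FPKM. At the other end, 13 genes stayed under 1 FPKM in all mice, among them Col5a1, Col2a1, Col15a1, Col17a1 and Col6a4. The genes listed most often at exactly 0 were Col17a1, in 7 of the 12 mice, and Col9a1, in 6. Col1a1 and Col1a2 together made up between 40.1% and 60.7% of all collagen FPKM in responders (median 46.3%) and between 41.9% and 75.0% in non-responders (median 67.0%).

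**Figure D1:**
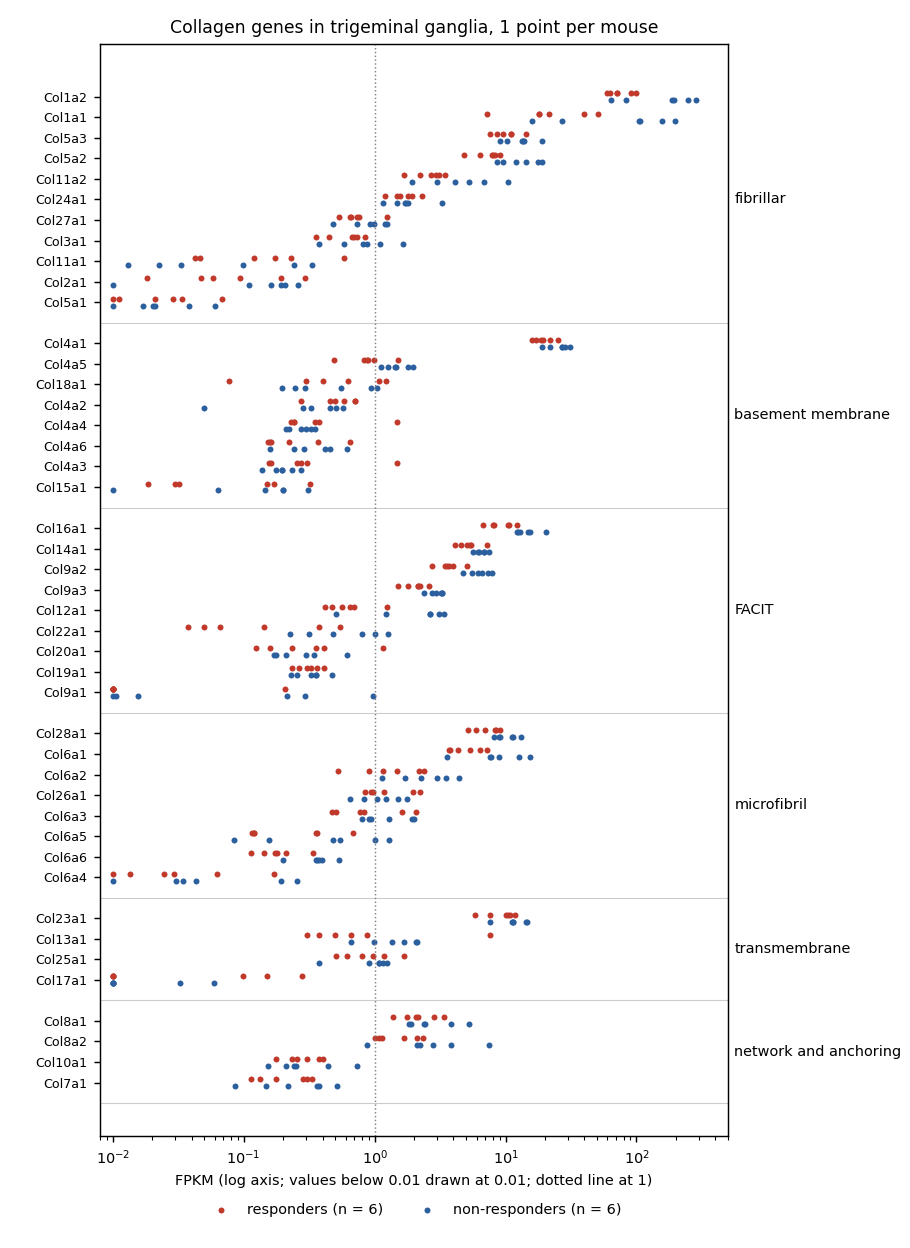
FPKM of the 44 collagen genes on a log axis, grouped by class and ordered by mean, with responders in red above non-responders in blue and 1 point per mouse; values below 0.01 FPKM are drawn at 0.01 and the dotted line marks 1 FPKM. Col1a2 and Col1a1 stand at the top, and most members lie near or under 1 FPKM.

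Chains that assemble with each other were listed at very different levels. Col4a1 was listed at between 31.2 and 70.3 times the FPKM of Col4a2 in responders (median 33.8) and at between 47.3 and 436 times in non-responders (median 60.8), although both chains enter the same type IV trimer. The genes lie head to head, Col4a1 at chr8:11198423-11312826 on the minus strand and Col4a2 at chr8:11312805-11449287 on the plus strand of GRCm38, and their annotated spans share 22 bases. Col5a2 averaged 10.4 FPKM over the 12 mice while Col5a1, its usual partner, stayed at or under 0.0679 FPKM in all of them. Col3a1, the chain of type III collagen that accompanies type I in most soft connective tissue, reached at most 0.837 FPKM in responders and 1.64 FPKM in non-responders, so that Col1a2 exceeded it at least 81.7-fold in every mouse. Whether these low listings of Col4a2, Col5a1 and Col3a1 belong to the tissue or to the estimation of the values was not tested.

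Other partners stayed closer. Col9a2 stood at a median of 1.80 times Col9a3 in responders and 2.14 times in non-responders, and Col6a1 at 3.70 times Col6a2 in responders and 3.43 times in non-responders. Col4a3 stood at a median of 0.769 times Col4a4 in responders and 0.708 times in non-responders. Col4a3 and Col4a4 are also head to head, 71 bases apart on chromosome 1, and both listed their highest value in Responder 1, at 1.49 and 1.48 FPKM, against at most 0.374 FPKM of either gene in any other mouse. The ratio of Col1a1 to Col1a2 was between 0.121 and 0.508 in responders (median 0.296) and between 0.246 and 0.692 in non-responders (median 0.554). Col1a1 was thus listed below Col1a2 in every mouse. Whether this order belongs to the tissue or to the estimation of the values was not tested. All ratios are ratios of FPKM and so already per length.

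For the comparison, a gene had to reach 1 FPKM in 3 or more of the 12 mice, and was then tested with limma on log2(FPKM + 1), with sex as a covariate. That left 14203 genes, 25 of them collagens. By class these were 7 fibrillar, 3 basement membrane, 5 FACIT, 5 microfibril, 3 transmembrane and 2 network and anchoring genes. Of the 25, Col4a5, Col12a1, Col6a3, Col13a1 and Col25a1 reached 1 FPKM in 3 or more non-responders but in fewer than 3 responders, so that a difference in 1 direction helped them into the test. Log2 fold changes are responder over non-responder, and since 1 is added to each FPKM before the logarithm, the fold of a weakly listed gene comes out too small.

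No collagen gene passed an adjusted p of 0.05 (0 of 25), where 0.0211% of all tested genes did, 3 of 14203. The smallest adjusted p by limma was 0.283, for Col9a2. In 23 of the 25 the estimate was below 0, lower in responders, against 49.3% of all tested genes. An unadjusted p under 0.05 with a lower value in responders was found for 14 of the 25 (56%), against 4.17% of all tested genes, and with a higher value for 0 of 25, against 3.23%. Leaving out the 5 genes let in by non-responders alone, 18 of 20 were lower and 12 of 20 were lower at an unadjusted p under 0.05. Among all tested genes not let in by 1 group alone, 13303 in number, these shares were 48.4% and 3.62%. The median log2 fold change over the 25 was -0.38, beside 0.00344 over all tested genes. The count of 14 of 25 came to 9 of 23 without Responder 2, 9 of 25 without Non-responder 4 and 8 of 23 without Non-responder 5. It was 11 of 24 without Responder 1, and 9 of 24 without both Responder 1 and Non-responder 4, when all 24 were lower in responders. These are counts over genes measured in the same 12 mice, and no p was computed for the collagens as a group.

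**Figure D2:**
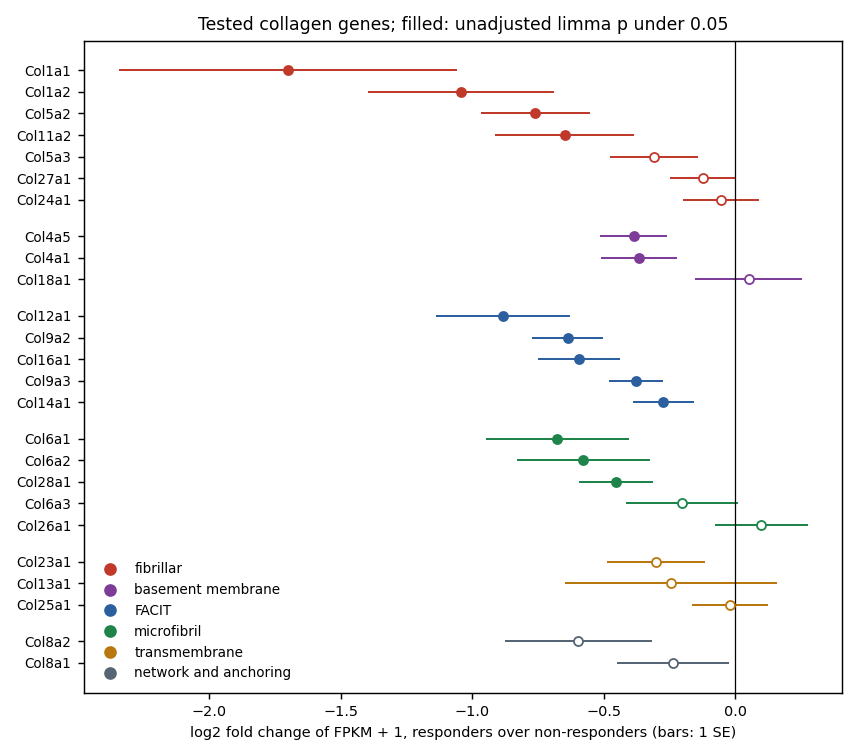
Log2 fold change, responder over non-responder on the log2(FPKM + 1) scale, of the 25 tested collagen genes by class, with bars of 1 SE, filled where the unadjusted limma p was under 0.05; the line at 0 marks equal levels. Points lie left of 0 for 23 genes, and the lowest estimate is that of Col1a1 at -1.70.

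Fibrillar collagens held the genes with the most negative estimates. Col1a2 (chr6:4504814-4541544) had a lowest, median and highest level of 59.8, 71.0 and 99.97 FPKM in responders, against 64.4, 192 and 284 FPKM in non-responders. The responders kept close together, while 4 non-responders lay above every responder and Non-responders 2 and 6, at 64.4 and 83.7 FPKM, lay among them. The log2 fold change was -1.04 ± 0.35 (SE), with an unadjusted p of 0.013 and an adjusted p of 0.583 by limma.

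Col1a1 (chr11:94936224-94953042) was high and low in the same non-responders. It was listed at 7.24, 19.8 and 50.8 FPKM (lowest, median and highest) in responders, against 15.8, 106 and 196 FPKM in non-responders. Non-responders 1, 3, 4 and 5, at 105, 107, 196 and 157 FPKM, were above all responders, and Non-responders 2 and 6, at 15.8 and 26.8 FPKM, were again within the responder range. The mean was 25.9 ± 16.1 FPKM in responders and 101 ± 70.8 FPKM in non-responders (SD, n = 6 each), a log2 fold change of -1.70 ± 0.64 (SE; adjusted p = 0.611, limma).

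Type V chains, which co-assemble with type I and limit fibril width, differed less. Col5a2 was listed at 4.77, 7.89 and 9.001 FPKM in responders, against 8.55, 13.1 and 18.9 FPKM in non-responders (lowest, median and highest). Only the highest responder, Responder 4, exceeded the lowest non-responder, Non-responder 2. The log2 fold change was -0.76 ± 0.21 (SE; unadjusted p = 0.00353, adjusted p = 0.445, limma). Col5a3, a type V chain known from nerve and other tissues, had medians of 10.3 FPKM in responders and 13.4 FPKM in non-responders with overlapping ranges (log2 fold change -0.31 ± 0.17 SE, adjusted p = 0.715, limma). Its level stood above that of Col5a2 in all responders, at 1.11 to 1.72 times, and at 0.753 to 1.62 times in non-responders.

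Col11a2, a type XI chain best known from cartilage, was listed at 1.67, 2.82 and 3.47 FPKM in responders, against 1.93, 4.71 and 10.5 FPKM in non-responders. The groups overlapped, and the top value belonged to Non-responder 4 (log2 fold change -0.65 ± 0.27 SE, adjusted p = 0.640, limma). Col24a1 and Col27a1, developmental fibrillar collagens, had log2 fold changes of -0.05 and -0.12 and nearly shared ranges. Col3a1, Col11a1, Col2a1 and Col5a1 did not enter the test. Over all 11 fibrillar genes the summed level was 85.7 to 174 FPKM in responders and 110 to 525 FPKM in non-responders. All 7 tested members were lower in responders by estimate (49.3% of all tested genes), 4 of them at an unadjusted limma p under 0.05 (4.17% of all).

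FACIT collagens were the 1 class of the 6 whose summed levels did not overlap between the groups. Their sum was 19.6, 23.0 and 23.8 FPKM in responders, against 27.9, 33.8 and 42.4 FPKM in non-responders (lowest, median and highest), so that every responder lay below every non-responder. No single tested member separated the groups in this way (0 of 25 collagens, against 0.549% of all tested genes in either direction and 0.296% with every responder below every non-responder). Of the 5 tested members, 1 of them (Col12a1) let in by non-responders alone, none passed the adjustment. The other 4 each had a lower estimate in responders and an unadjusted limma p under 0.05. Among all tested genes not let in by 1 group alone, 3.62% had both.

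Col9a2 (chr4:121039385-121055322), a chain of the cartilage FACIT type IX, had the smallest p of all collagen genes. It was listed at 2.72, 3.63 and 5.09 FPKM in responders, against 4.73, 6.42 and 7.92 FPKM in non-responders. Responder 3 was the only responder above the lowest non-responder, Non-responder 1. The mean was 3.75 ± 0.782 FPKM in responders and 6.38 ± 1.17 FPKM in non-responders (SD, n = 6 each), a log2 fold change of -0.64 ± 0.13 (SE; unadjusted p = 0.000586, adjusted p = 0.283, limma).

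Its partner Col9a3 was listed at 1.504, 2.15 and 2.604 FPKM in responders, against 2.40, 3.07 and 3.29 FPKM in non-responders. Here too only Responder 3 crossed into the other group's range (log2 fold change -0.38 ± 0.10 SE, adjusted p = 0.445, limma). The third chain of the trimer, Col9a1, was listed at 0 in all responders but Responder 3, at 0.207 FPKM, and at 0 to 0.976 FPKM in non-responders.

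Col16a1 (chr4:130047840-130099283), a FACIT of many connective tissues, was the most abundant of its class. It was listed at 6.76, 9.32 and 12.3 FPKM in responders, against 12.1, 13.9 and 20.3 FPKM in non-responders. Responder 4 and Non-responder 2 were the only pair whose order was turned round. The log2 fold change was -0.59 ± 0.16 (SE; unadjusted p = 0.00288, adjusted p = 0.445, limma).

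Col12a1, which binds the surface of type I fibrils, was low and uneven, at 0.419, 0.606 and 1.25 FPKM in responders, against 0.509, 2.66 and 3.38 FPKM in non-responders. Non-responders 1, 3, 4 and 5 were again the high mice, and Non-responders 2 and 6 lay within the responder range (log2 fold change -0.88 ± 0.26 SE, adjusted p = 0.472, limma). Col14a1, also a binder of type I fibrils, had medians of 5.21 FPKM in responders and 6.57 FPKM in non-responders (log2 fold change -0.27 ± 0.12 SE, adjusted p = 0.644, limma). The untested FACIT genes Col22a1, Col20a1 and Col19a1 reached at most 1.16 FPKM in responders and 1.27 FPKM in non-responders.

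**Figure D3:**
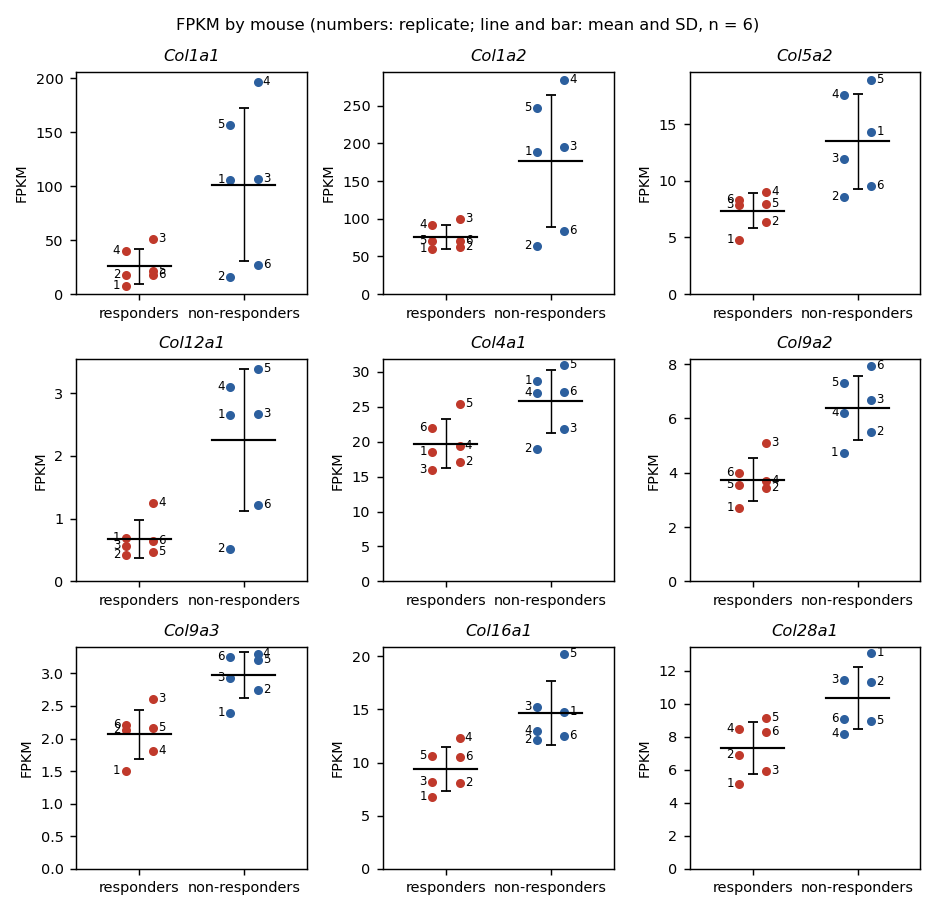
FPKM of 9 collagen genes in each mouse, responders left and non-responders right; numbers give the replicate, and the line and bar the mean and SD of 6 mice. Non-responders 2 and 6 fall in the responder range for Col1a1 and Col1a2, while in Col9a2 only Responder 3 lies above the lowest non-responder.

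Among basement membrane genes, Col4a1 carried most of the listed level. It was listed at 15.96, 18.9 and 25.4 FPKM in responders, against 18.9, 27.0 and 31.0 FPKM in non-responders. The ranges overlapped through Responders 4, 5 and 6 and Non-responders 2 and 3. Its log2 fold change was -0.37 ± 0.14 (SE; unadjusted p = 0.0273, adjusted p = 0.635, limma).

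Col4a5, a chain of the type IV network disrupted in Alport syndrome, was listed at 0.485, 0.880 and 1.52 FPKM in responders, against 1.11, 1.45 and 1.95 FPKM in non-responders. Responder 1 was the only responder above 1 FPKM (log2 fold change -0.38 ± 0.13 SE, adjusted p = 0.569, limma). Col18a1, the source of endostatin, was listed at 0.077 to 1.23 FPKM in responders and at 0.197 to 1.05 FPKM in non-responders, with a log2 fold change of 0.05. It shares 8825 bases of its span with Slc19a1 on the other strand, listed at up to 13.8 FPKM, and the sources used here do not say if strand entered the counting. Col4a2, Col4a6 and Col15a1 stayed at or under 0.712 FPKM in all mice.

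Microfibril genes followed the same order by estimate in 4 of 5 tested members (49.3% of all tested genes). Without Col6a3, let in by non-responders alone, it was 3 of 4, against 48.4% of tested genes not let in by 1 group alone. Col28a1, a type VI relative known from peripheral nerve, was listed at 5.15, 7.60 and 9.14 FPKM in responders, against 8.14, 10.2 and 13.1 FPKM in non-responders. The upper 3 responders overlapped the lower 3 non-responders (log2 fold change -0.45 ± 0.14 SE, unadjusted p = 0.00817, adjusted p = 0.520, limma).

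Col6a1 and Col6a2, obligate partners in type VI collagen, lie on the same strand of chromosome 10. Col6a1 was listed at 3.69, 4.85 and 7.18 FPKM in responders, against 3.57, 8.32 and 15.4 FPKM in non-responders, where Non-responder 2 was lowest of all mice and the other 5 exceeded every responder (log2 fold change -0.68 ± 0.27 SE, adjusted p = 0.640, limma). Col6a2 was listed at 0.521, 1.32 and 2.38 FPKM in responders, against 1.14, 2.64 and 4.38 FPKM in non-responders (log2 fold change -0.58 ± 0.25 SE, adjusted p = 0.651, limma). Col6a3, the long chain of the same molecule, had medians of only 0.801 FPKM in responders and 1.12 FPKM in non-responders, and Col26a1 had the highest estimate of the 25, a log2 fold change of 0.10. Col6a4, Col6a5 and Col6a6 did not enter the test.

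Of the transmembrane collagens, Col23a1 was the most abundant, with 5.802, 10.2 and 11.8 FPKM in responders, against 7.65, 11.4 and 14.5 FPKM in non-responders (log2 fold change -0.30 ± 0.19 SE, adjusted p = 0.741, limma). Its ranges overlapped over most of their length. Col13a1, which is known from the neuromuscular junction, was at 0.306 to 0.873 FPKM in 5 responders and at 7.59 FPKM in Responder 1, against 0.661 to 2.11 FPKM in non-responders. Apart from Responder 1, only Responder 3 lay above the lowest non-responder, Non-responder 2. Col25a1, needed in mice for motor axons to enter muscle, had medians of 0.887 FPKM in responders and 1.08 FPKM in non-responders, and the hemidesmosome collagen Col17a1 was at or under 0.151 FPKM in all mice but Responder 1, at 0.278 FPKM.

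The chains of type VIII, which forms a hexagonal lattice around vessels and in the cornea, were Col8a1 with medians of 2.10 FPKM in responders and 2.41 FPKM in non-responders, and Col8a2 with 1.40 FPKM in responders and 2.51 FPKM in non-responders. Col8a2 reached 7.49 FPKM in Non-responder 3, where Col8a1 was also highest at 5.21 FPKM. The log2 fold change of Col8a2 was -0.60 ± 0.28 (SE; adjusted p = 0.678, limma). Col10a1 of hypertrophic cartilage and Col7a1 of anchoring fibrils stayed under 1 FPKM in all mice.

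The difference was not carried by type I collagen alone. Summed over all 44 genes the level was 167, 202 and 248 FPKM in responders, against 191, 445 and 640 FPKM in non-responders. Without Col1a1 and Col1a2 it was 92.1, 101 and 113 FPKM in responders, against 111, 147 and 175 FPKM in non-responders, where only Responder 6 lay above the lowest non-responder. In bulk tissue, fewer cells of a type and less RNA per cell cannot be told apart.

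Both sexes gave mostly negative estimates. Within males, 21 of 25 tested collagens were lower in responders (50.9% of all tested genes), 9 at an unadjusted p under 0.05 (3.67% of all), with a median log2 fold change of -0.44. Within females, 22 were lower (50% of all), 6 at an unadjusted p under 0.05 (3.68% of all), with a median of -0.43. Without the 5 genes let in by non-responders alone, 18 of 20 were lower in males, 8 at that threshold, and 18 of 20 in females, 4 at that threshold. The matching shares of all tested genes not let in by 1 group alone were not computed within each sex. No collagen was called in either sex by limma (0 of 25), where 0.0141% of all tested genes were called in males and 0.00704% in females.

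Estimates for type I were further from 0 in males, with Col1a1 at -2.49 in males and -0.92 in females and Col1a2 at -1.35 in males and -0.74 in females, but the difference between the sexes was not shown: the interaction of Col1a1 had an unadjusted p of 0.239. Over all 25, 0 interactions were called (0.0% of all tested genes) and 0 had an unadjusted p under 0.05 (5.01% of all). Between females and males, with response as a covariate, 0 of 25 collagens were called by limma (0.0563% of all) and 0 had an unadjusted p under 0.05 (4.53% of all).

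A further label goes with the groups. The first number of each sample's description, whose meaning is not given, takes 4 values among responders and 3 among non-responders and is shared by mice of 1 group and sex only, so that it and the response cannot be told apart. Within the number shared by 3 male non-responders, Col1a1 was listed at between 15.8 and 196 FPKM and Col1a2 at between 64.4 and 284 FPKM. The spread of type I collagen within that number was thus as wide as that over all non-responders, while Col9a2 kept to between 5.50 and 7.32 FPKM.

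The coding sequences show how the classes differ in the glycine repeat that defines a collagen. In the longest GENCODE M21 coding sequence of each gene, glycine codons at a spacing of 3 codons were counted in unbroken runs of at least 5 triplets. The longest run spanned 216 to 344 triplets in fibrillar genes (median 338), with Col24a1 and Col27a1 shortest at 216 and 217. In the other classes it was far shorter, 30 to 66 in basement membrane, 32 to 113 in FACIT, 23 to 87 in microfibril, 40 to 56 in transmembrane and 60 to 75 in network and anchoring genes. The share of codons inside such runs went from 8.19% to 86.2% within FACIT genes, wider than in any other class.

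**Figure D4:**
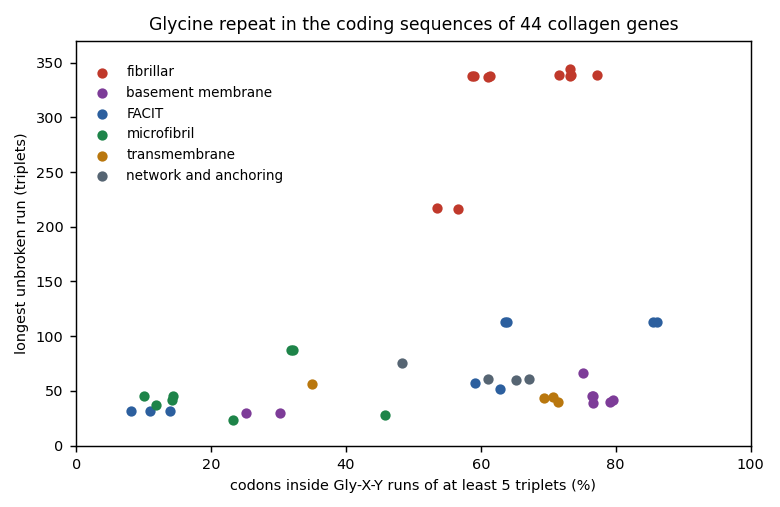
Longest unbroken run of glycine triplets in the coding sequence of each collagen gene against the share of its codons in runs of at least 5 triplets, by class. Fibrillar genes stand apart at 216 to 344 triplets, and no other gene exceeds 113.

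The wider collagen pathway was read from 69 genes in 6 lists, of which 57 entered the test. None was called in either direction by limma (0 of 57), where 0.0211% of all tested genes were. By estimate 46 were lower (49.3% of all tested genes) and 11 higher in responders. At an unadjusted p under 0.05 there were 17 lower (4.17% of all) and 1 higher (3.23% of all). Plod1, Dpt and Mmp8 were let in by non-responders alone, and without them 43 of 54 were lower, 15 at that threshold. Among all tested genes not let in by 1 group alone, these shares were 48.4% and 3.62%. Of 19 tested genes of chain assembly and hydroxylation, 3 were lower and 1 higher at that threshold, with a median log2 fold change of -0.06. Crtap, part of the prolyl 3-hydroxylation complex, averaged 11.5 ± 1.198 FPKM in responders and 14.8 ± 1.94 FPKM in non-responders, and the collagen chaperone Fkbp10 3.73 ± 0.307 FPKM in responders and 5.28 ± 0.943 FPKM in non-responders (SD, n = 6 each; adjusted p = 0.445 by limma for both). Mia3, which loads procollagen into transport carriers, stood the other way, at 17.5 ± 3.82 FPKM in responders and 13.4 ± 1.597 FPKM in non-responders (adjusted p = 0.623, limma).

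Propeptide removal had 6 of 6 tested genes lower by estimate (49.3% of all tested genes), 2 of them at an unadjusted p under 0.05 (4.17% of all). They were Adamts2, which cuts the N-propeptide (log2 fold change -0.55), and Pcolce, an enhancer of C-propeptide cleavage (-0.43), with Bmp1, the C-propeptide protease itself, at -0.29. Cross-linking had 4 of 4 lower and 2 at that threshold, beside the same shares of all genes. Lox, the lysyl oxidase that starts fibril cross-links, averaged 3.39 ± 0.941 FPKM in responders and 5.63 ± 1.70 FPKM in non-responders (SD, n = 6 each; adjusted p = 0.583, limma), beside a log2 fold change of -0.28 for Loxl3.

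Fibril-binding proteins had 12 of 13 lower (49.3% of all tested genes) and 7 at an unadjusted p under 0.05 (4.17% of all), Dpt among them, with a median log2 fold change of -0.41. Fmod, a small leucine-rich proteoglycan on fibrils, averaged 5.42 ± 2.50 FPKM in responders and 20.6 ± 12.6 FPKM in non-responders (log2 fold change -1.65, adjusted p = 0.308, limma), and its highest responder and lowest non-responder nearly met, at 9.48 and 9.46 FPKM. Postn, a matrix protein of periosteum and healing tissue, averaged 4.42 ± 2.14 FPKM in responders and 28.2 ± 26.3 FPKM in non-responders (log2 fold change -2.02, adjusted p = 0.445, limma). Receptors had 5 of 7 lower and 1 at that threshold, beside the same shares of all genes. This was the collagen-binding integrin subunit Itga1, with a log2 fold change of -0.25.

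Degrading enzymes had 7 of 8 lower (49.3% of all tested genes), 2 at an unadjusted p under 0.05 (4.17% of all), and a median log2 fold change of -0.90. Mmp8, let in by non-responders alone, is among the 7, and its log2 fold change of -1.09 enters that median. Among all tested genes not let in by 1 group alone, 48.4% were lower. Mmp2, a gelatinase, averaged 12.2 ± 2.16 FPKM in responders and 21.0 ± 6.11 FPKM in non-responders (adjusted p = 0.478, limma). Ctsk, the cathepsin with which osteoclasts degrade bone collagen, averaged 8.11 ± 4.33 FPKM in responders and 25.4 ± 15.8 FPKM in non-responders (adjusted p = 0.590, limma).

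Markers of neighbouring tissues had values in the same order as the collagen levels. The 8 bone genes, Bglap among them, all had a lower mean in responders and summed to 7.01, 15.2 and 64.2 FPKM in responders, against 13.2, 125 and 218 FPKM in non-responders. Non-responders 1, 3, 4 and 5, the 4 mice highest in Col1a1, were the 4 highest in this sum too, and Non-responders 2 and 6, low in Col1a1, had 18.5 and 13.2 FPKM. The 12 fibroblast and meninges genes, 6 of which also stand in the fibril-binding list, summed to 269, 419 and 592 FPKM in responders, against 554, 754 and 1599 FPKM in non-responders, with a lower mean in responders for all but Dcn. What part bone or connective tissue beside the ganglion has in the collagen levels was not tested.

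Cartilage, muscle, fat and glia markers had the same order. The 8 cartilage genes summed to 15.4 to 26.2 FPKM in responders and 21.8 to 42.2 FPKM in non-responders, with Matn1 near 0. The 8 skeletal muscle genes summed to 9.99 to 440.1 FPKM in responders and 33.1 to 2016 FPKM in non-responders, and the 8 adipocyte genes to 2.71 to 8.28 FPKM in responders and 5.86 to 57.3 FPKM in non-responders, with Lep at 0 in all mice. The 8 satellite glia and Schwann cell genes summed to 1684, 2427 and 3113 FPKM in responders, against 3152, 3661 and 4494 FPKM in non-responders, without overlap, although only 5 of the 8 had a lower mean in responders. Endothelial genes summed to 40.5 to 56.4 FPKM in responders and 41.5 to 70.4 FPKM in non-responders, and pericyte and smooth muscle genes to 30.8 to 71.1 FPKM in responders and 32.3 to 136 FPKM in non-responders. The 8 pituitary genes had the opposite order, 359 to 77911 FPKM in responders and 27.2 to 1053 FPKM in non-responders. The part of these tissues in the collagen result was not tested.

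**Figure D5:**
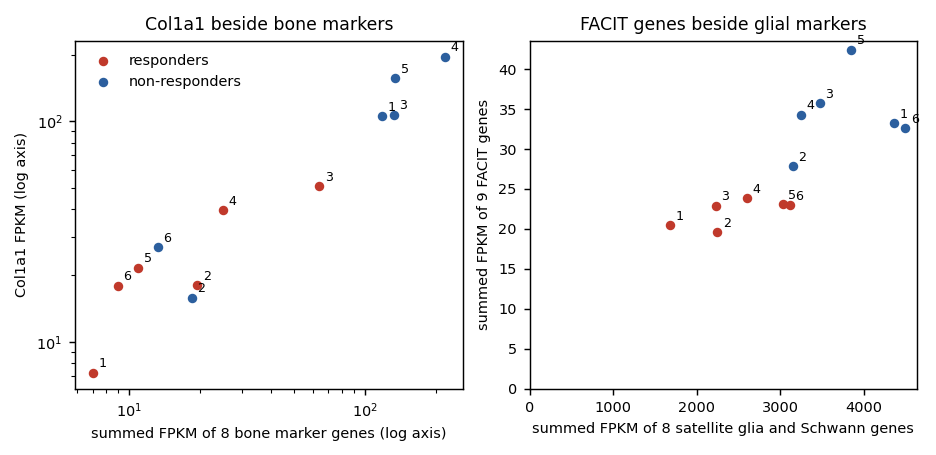
Left, Col1a1 FPKM against the summed FPKM of 8 bone genes on log axes, and right, the summed FPKM of 9 FACIT genes against that of 8 satellite glia and Schwann cell genes on linear axes; points are mice numbered by replicate, responders in red and non-responders in blue. Col1a1 is highest in the 4 mice with the highest bone sum, and the FACIT sum separates the groups as the satellite glia and Schwann cell sum does.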

How the data were processed

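RNA sequencing values of 12 mouse trigeminal ganglia were used. The authors deposited 1 table of FPKM per Ensembl gene and mouse; the header does not name the unit, which was taken from the values. The submitters' processing notes name StringTie 1.3.5, STAR 2.6.0a and the builds GRCm38 and mm10. Whole fragments were not recovered (of the low values of genes with 1 exon, 16.9% to 24.2% per mouse were whole multiples of a step within a tolerance of 0.05, where chance gives 10.0%), so the depth is unknown and no interval from counts is given. Symbols and coordinates came from GENCODE M21, which held 51024 of 51341 identifiers. No column repeated another.

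The log2(FPKM + 1) values entered limma 3.58.1 (R 4.3.3) with sex as covariate, 9 residual degrees of freedom and no trend in eBayes. Genes at 1 FPKM or more in 3 or more mice were kept, and p-values were adjusted by Benjamini-Hochberg over all 14203, 2-sided. Sexes were compared from 4 cell means. The members, classes, gene lists and tests were chosen with earlier results of these data known. Named are, per class, the tested members of highest mean or smallest p, and per pathway list up to 3 of smallest p; other members are given by range, and Actb, Gapdh and some chain pairs were added after their values were seen. Promoters came from RefSeq. Chain features are read from coding sequences, since no protein table was used here. The limma step was tested on simulated data. Alternatives changed the pseudocount, filter, scaling, weights, variance prior and covariate, and left out mice in turn.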

Additional observations from a re-analysis of the deposited data

Results flagged for a closer look

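In 4 of 50 sets of 6 mice (25 tested collagen genes in each response group), 1 mouse lay far from the other 5 relative to the whole range, which chance gives in about 1 of 20 sets. Col13a1 was listed at 7.59 FPKM in Responder 1, against 0.306 to 0.873 FPKM in the other responders. Responder 1 also had the highest pituitary sum, 77911 FPKM, and the part of this in the Col13a1 value was not tested. Col27a1 was listed at 1.25 FPKM in Responder 2, against 0.534 to 0.765 FPKM in the other responders. Col24a1 was listed at 3.29 FPKM in Non-responder 5, against 1.17 to 1.79 FPKM in the other non-responders. Col25a1 was listed at 0.378 FPKM in Non-responder 1, against 0.913 to 1.24 FPKM in the other non-responders.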

How the results depend on the processing

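The count of called collagen genes by limma was 0 in all 24 alternatives run for the response, and likewise in those run for each sex, the interaction and the comparison of females with males. Among the alternatives run for the response, the smallest adjusted p by limma was 0.0943, for Col12a1 without Non-responder 2. The number at an unadjusted p under 0.05 and lower in responders, 14 of 25, ranged from 8 to 16 when 1 mouse was left out. Fewer collagens entered the test in some of these alternatives. The number was 9 of 23 without Responder 2, 9 of 25 without Non-responder 4 and 8 of 23 without Non-responder 5. Without both Responder 1 and Non-responder 4, a choice made after seeing the data, it was 9 of 24. The cause was not tested. The median log2 fold change ranged from -0.51 (pseudocount 0.1) to -0.22 (no filter, 44 genes). Of 589 estimates of single genes, 12 in 4 genes changed sign and none changed its call. With 1 mouse left out, Col18a1 ranged from -0.0421 to 0.152, Col24a1 from -0.146 to 0.0579 and Col25a1 from -0.102 to 0.0532. Col18a1 was at -0.116 when mice were averaged by description number, Col25a1 at 0.0251 with quantile normalization, and Col26a1 at -0.0900 with array weights and at -0.0419 without both Responder 1 and Non-responder 4. The replicate numbers of the titles do not pair the mice. Deviations of same-numbered mice correlated at -0.273 to 0.133, and no responder correlated best with the non-responder of its own number. With the replicate number as a block, 14 collagens were again at an unadjusted p under 0.05 and lower, 0 were called, and the smallest adjusted p was 0.318. With mice averaged by description number, 11 of 25 were lower at that threshold, 0 were called, and the smallest adjusted p by limma was 0.394. Array weights were estimated from the model without the interaction, because those from 4 cell means did not converge. Depth is unknown, so that what it limits could not be worked out.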
